A study of Drosophila melanogaster with 96 samples.

Results

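The comparison described here sets fly heads kept at 29 °C against fly heads kept at 18 °C at the clock hours 16 and 20 of constant darkness. Its members are the 16 RNA-seq libraries with these hours in their names, 8 at each temperature, out of 96 in the series. Each group of 8 holds 2 days (4 and 5), 2 hours and 2 replicates per time point. All flies were adult Drosophila melanogaster of ISO1, the inbred stock from which the fly reference genome was made, and carried no transgene named in the labels. The groups are labelled 29C DD and 18C DD, where DD stands for constant darkness. The series also has 25C DD and a light-dark cycle at 25 °C. Libraries were made from polyadenylated RNA of heads labelled male. The labels give neither the age of the flies, the number of heads in a library nor the event from which days and hours are counted. Hours 16 and 20 are subjective night only on the usual convention that hour 0 is the time of lights-on. No collection or incubator batch is labelled, so one that differed between the temperatures cannot be told apart from the temperature.

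In the circadian clock of the fly, the transcription factors CLOCK and CYCLE switch on period (per) and timeless (tim), whose proteins return to the nucleus late at night and shut their own genes off. A second loop runs through vrille (vri), Pdp1 and clockwork orange (cwo), and the photoreceptor cryptochrome (cry) resets TIMELESS in light. The pace of this clock is nearly independent of temperature, whereas much of fly metabolism is not. Splicing of per and tim transcripts is known to vary with temperature in flies, and counts per gene do not separate the spliced forms. Warmth within the range flies live in also draws on heat shock proteins, the chaperones that keep other proteins folded.

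In units of 1000000 counts, library totals ran from 20.1 to 30.8 at 18 °C (median 21.1) and from 18.2 to 28.4 at 29 °C (median 19.6). At the overall median, 1 CPM (counts per 1000000, after TMM scaling over the 72 libraries in darkness) stood for 20.6 counts. No pair of libraries was identical. The first principal component held 54.4% of the variance and separated the temperatures. The second held 11.8% and put replicates 1 and 2 of day 4, hour 16, at opposite ends at both temperatures, so counts are also given without those 4 libraries. Replicate 1 of day 4, hour 8, also stood away from its partner for clock genes, which touches the comparison with the day hours below.

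The tissue label was checked against marker genes. Markers of neurons and photoreceptors were high, and the 6 accessory gland markers summed to at most 0.228 CPM in any of the 16 libraries, with 3 of them at 0 in all. Of 7 gut markers, 4 were at 0 in all 16 libraries. The sex label met a mixed picture. The yolk protein genes Yp1, Yp2 and Yp3, which are known for expression in females, were abundant in every library, with Yp2 at 9773 CPM or more in each library at 18 °C and at 4486 CPM or more at 29 °C. The male-specific RNA lncRNA:roX1 was also present in every library, at 289 to 504 CPM at 18 °C and 431 to 684 CPM at 29 °C, with overlap (log2 fold change 0.62 ± 0.12). Yp2 was lower at 29 °C by a log2 fold change of -1.19 ± 0.20 (SE), with overlap between the groups. It was the only member past 2-fold among the 4 tested markers of female tissue. Of these, 2 were lower and 2 not called, with a median of -0.38 and none without overlap. The RNA lncRNA:roX2 was higher by 1.66 ± 0.11, with no overlap between the groups. Whether a differing share of female heads had a part in any result below was not tested.

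Warmth changed most of the measured transcriptome at these hours, in the main by small amounts. Of 10374 genes tested with edgeR's quasi-likelihood test, 5935 differed at a Benjamini-Hochberg adjusted p under 0.05 and are termed called, which is 57.2% of them. The changes were balanced, with 3020 genes higher at 29 °C (29.1%) and 2915 lower (28.1%). Their median absolute log2 fold change was 0.36, and the median over all tested genes was within 0.01 of 0. Of the called genes, 5788 (97.5%) moved the same way at all 4 time points. A call with a change of at least 2-fold was made in 510 genes (4.92%), 286 higher (2.76%) and 224 lower (2.16%). In 2174 genes (21.0%) the 8 libraries at 29 °C and the 8 at 18 °C did not overlap, 1142 of them higher (11%) and 1032 lower (9.95%). Without the 4 libraries of day 4, hour 16, 6012 genes were called and 527 of them changed at least 2-fold.

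The 12 largest increases and 12 largest decreases among genes with a mean of at least 5 CPM are in the plot of single libraries. Single small heat shock, cuticle, storage and immune genes lead the increases, which does not describe their families. Of 19 cuticle genes tested, for example, 5 were higher and 8 lower, and lists of such genes are counted further below. A cuticle gene and a polyamine enzyme lead the decreases. In all 24 genes the 8 libraries of one temperature lay wholly above the 8 of the other, and the 25 °C mean lay between them. The lack of overlap follows largely from choosing these genes by the size and direction of their change in the same libraries.

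**Figure D1:**
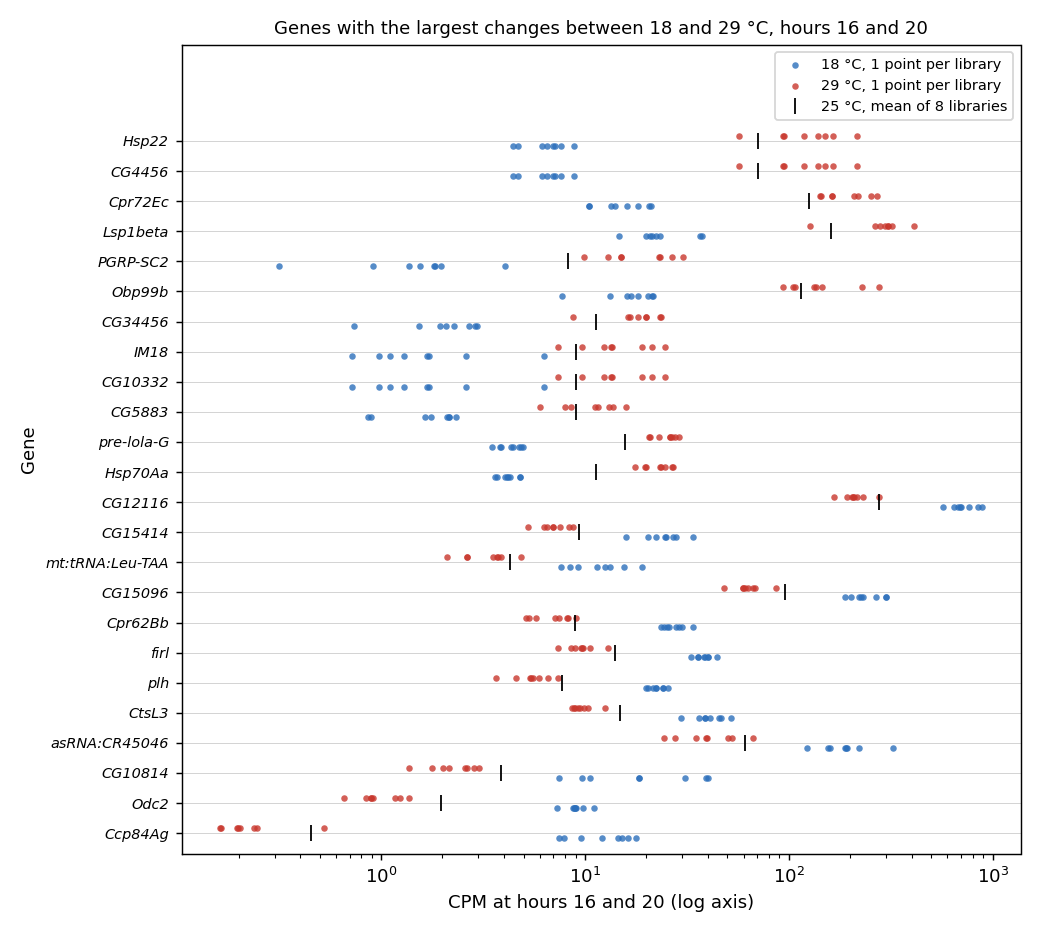
Level in CPM (log axis) at hours 16 and 20 of the 24 genes with the largest changes, with 1 point per library at 18 °C (blue, n = 8) and 29 °C (red, n = 8) and a black tick at the 25 °C mean. In no gene do red and blue points overlap; Hsp22 runs from 4.42 to 8.80 CPM at 18 °C and from 57.0 to 216 CPM at 29 °C.

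The largest increase was that of Hsp22 (FBgn0001223), a mitochondrial small heat shock protein gene at 3L, 9372931 to 9374964, plus strand, in the BDGP6.54 annotation. Its lowest, median and highest levels were 4.42, 6.74 and 8.80 CPM at 18 °C and 57.0, 129.0 and 216 CPM at 29 °C. The groups were far apart, with a 19.2-fold ratio of means and a log2 fold change of 4.27 ± 0.20 (edgeR adjusted p = 2.1e-10). CG4456, also known as Hsp67Bb, overlaps Hsp22 on the same strand and had identical values in every library, so the change belongs to the pair and cannot be assigned to either gene.

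Cpr72Ec (3L, 16365894 to 16367340, minus strand), a chitin-binding cuticle protein gene, stood at 10.4, 15.1 and 21.2 CPM (lowest, median, highest) at 18 °C and at 143, 186 and 272 CPM at 29 °C (log2 fold change 3.66 ± 0.08). Lsp1beta (2L, 898500 to 901316, plus strand), a hexamerin that larvae store as an amino acid reserve, stood at 14.6, 21.8 and 37.3 CPM at 18 °C and 126, 301 and 410 CPM at 29 °C (3.59 ± 0.22). Both genes were higher in every library at 29 °C than in any at 18 °C. PGRP-SC2, whose enzyme cuts bacterial peptidoglycan and so dampens immune signalling, rose from a median of 1.69 to 19.2 CPM (3.50 ± 0.29). The odorant-binding protein gene Obp99b rose by 3.15 ± 0.24 from a median of 17.5 to 135 CPM. The remaining genes among the 12 were CG34456 (log2 fold change 3.08), the immune-induced gene IM18 and CG10332, which overlap and had identical values (2.97), CG5883 (2.67), pre-lola-G, which lies within lola (2.54), and Hsp70Aa (2.44), one of several near-identical copies.

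The largest decrease was that of Ccp84Ag (FBgn0004777; 3R, 6686728 to 6688039, plus strand), another cuticle protein gene. It stood at 7.501, 13.3 and 17.7 CPM (lowest, median, highest) at 18 °C and at 0.162, 0.201 and 0.524 CPM at 29 °C. Warm heads thus held almost none of this transcript, with 3 counts in the lowest library and a log2 fold change of -5.65 ± 0.24. Odc2 (2R, 8007246 to 8009062, plus strand), an ornithine decarboxylase that makes the polyamine putrescine, stood at 7.26, 8.92 and 11.03 CPM at 18 °C and at 0.658, 0.904 and 1.37 CPM at 29 °C (-3.17 ± 0.11). CG10814 fell by 3.16 on the log2 scale and varied more between libraries, from 7.49 to 39.97 CPM at 18 °C against 1.37 to 3.01 CPM at 29 °C. The cathepsin L-like protease gene CtsL3 fell by 2.07, the cuticle gene Cpr62Bb by 1.97 and CG12116 by 1.76, the last from a median of 694 to 208 CPM. The antisense RNA asRNA:CR45046 (log2 fold change -2.22) overlaps the gene fit on its own strand, so their counts cannot be fully separated. The other members were plh (-2.02), firl (-1.99), CG15096 (-1.91), the mitochondrial tRNA mt:tRNA:Leu-TAA (-1.85) and CG15414 (-1.80).

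Among the 8 core clock genes, 2 were higher and 3 lower at 29 °C, and 3 were not called. The called share was 62.5%, near the 57.2% of all tested genes. The tim gene (FBgn0014396; 2L, 3493986 to 3508119, minus strand) stood at 182, 221 and 279.5 CPM (lowest, median, highest) at 18 °C and at 301, 381 and 448 CPM at 29 °C. Every warm library held more tim than any cool one, and the log2 fold change was 0.73 ± 0.08 (edgeR adjusted p = 9.61e-07). Its partner per (FBgn0003068; X, 2685580 to 2692780, plus strand) moved the other way, from 87.7, 118 and 157 CPM to 68.4, 77.5 and 104 CPM. The per groups overlapped, and the log2 fold change was -0.55 ± 0.11 (edgeR adjusted p = 0.000497). The decrease of per at hour 16 alone was -0.28 and did not pass (edgeR adjusted p = 0.177), against -0.84 at hour 20 alone. The difference between the hours was itself not called (-0.55 ± 0.17, edgeR adjusted p = 1.0).

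The repressor gene cwo was lower at 29 °C in every library, at 124 to 153 CPM in the cool and 82.95 to 101 CPM in the warm heads (log2 fold change -0.59 ± 0.04). Pdp1, which encodes an activator of Clk, rose by 0.37 ± 0.06 with overlapping groups. The value for cyc, the CYCLE gene, was -0.17 ± 0.05, a call that was lost without replicate 2 (edgeR adjusted p = 0.198). Clk (-0.09 ± 0.10), cry (0.01 ± 0.05) and vri (0.05 ± 0.07) were not called. The pooled value of vri covers opposite signs at the hours, with 0.26 at hour 16 alone (edgeR adjusted p = 0.0528) and -0.16 at hour 20 alone, which was called (edgeR adjusted p = 0.0214), while the difference between the hours was not called (-0.41 ± 0.10, edgeR adjusted p = 1.0). Within the list per overlaps dyw, cry overlaps vib and tim contains snoRNA:Or-CD16, and reads of overlapping genes may have been divided between them. Of 13 clock kinases and degradation factors, 3 were higher and 4 lower (53.8% called, against 57.2% of all tested genes). The kinase gene nmo (-0.37 ± 0.08) and CkIIalpha, the catalytic subunit of casein kinase 2 (-0.24 ± 0.05), fell without overlap. The gene jet, whose F-box protein takes part in light-driven breakdown of TIMELESS, rose by 0.40 ± 0.08, and Fbxl4 by 0.27 ± 0.08.

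To see what belonged to these clock hours, the temperature effect was compared with that at hours 4 and 8 in a joint fit of 32 libraries. The difference was called in few genes, with the core clock genes per and tim among them. It was called in 17 of 10712 genes (0.159%), 12 with the more positive temperature effect at night (0.112%) and 5 with the more negative one (0.0467%), while 460 had an unadjusted p under 0.05. In 11 of the 17 the fitted change had opposite signs at the night and the day hours. At hours 4 and 8, 6451 of 10408 genes were called (62.0%), 32.3% higher and 29.6% lower at 29 °C. Of these, 5279 were also called at night, which is 88.9% of the night calls and 81.8% of the day calls, and 5272 of them moved the same way. Across 10316 genes the night and the day log2 fold changes, which come from different libraries, had a Pearson correlation of 0.94. Genes are not independent replicates, so this is a description.

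**Figure D2:**
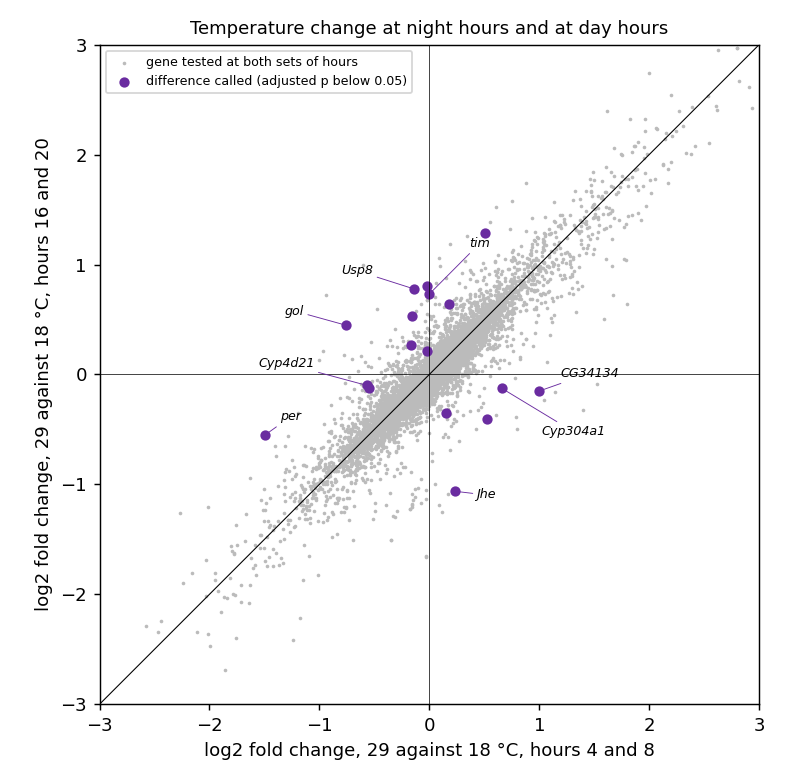
Log2 fold change of 29 against 18 °C at hours 16 and 20 (vertical axis) against that at hours 4 and 8 (horizontal axis), with 1 grey point per gene tested at both and the 17 genes with a called difference in purple, 8 of them named. Most genes lie along the diagonal line of equal change, 26 genes lie outside the axes, and per, tim, gol and Usp8 lie above the line while CG34134, Cyp304a1 and Jhe lie below it.

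The repressor partners per and tim had lower means at night than by day in the cool heads, a comparison of levels that was not tested. At hours 4 and 8, per was at 182 ± 50 CPM (SD, n = 8) at 18 °C and at 63.2 ± 6.80 CPM at 29 °C, and at hours 16 and 20 it was at 117 ± 26.6 and 78.9 ± 10.9 CPM. The mean of per at 18 °C was thus lower at night than by day and that at 29 °C higher, and the reduction by warmth was 0.96 ± 0.17 smaller on the log2 scale at night (edgeR adjusted p = 0.00744). For tim the day means were 316.5 ± 83.9 CPM at 18 °C and 309.9 ± 37.4 CPM at 29 °C, with no change detectable (log2 fold change 0.00). At night the means were 224 ± 37.3 CPM in the cool heads and 369.5 ± 45.7 CPM in the warm heads, and the temperature effect differed by 0.74 ± 0.14 (edgeR adjusted p = 0.0245). Over the whole day at 18 °C the means of per and tim were highest at hour 4, at 209 ± 10.9 and 359.3 ± 19.4 CPM (n = 4). At 29 °C they were highest at hour 12, at 90.7 ± 10.4 and 405.8 ± 41.9 CPM. Equal hours may thus not be equal points in the rhythm at both temperatures. Whether a shift of the rhythm had a part in the night-day differences was not tested. The snoRNA:Or-CD16 that lies within tim gave a difference of 0.84 ± 0.18, and its counts may come from tim transcripts.

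**Figure D3:**
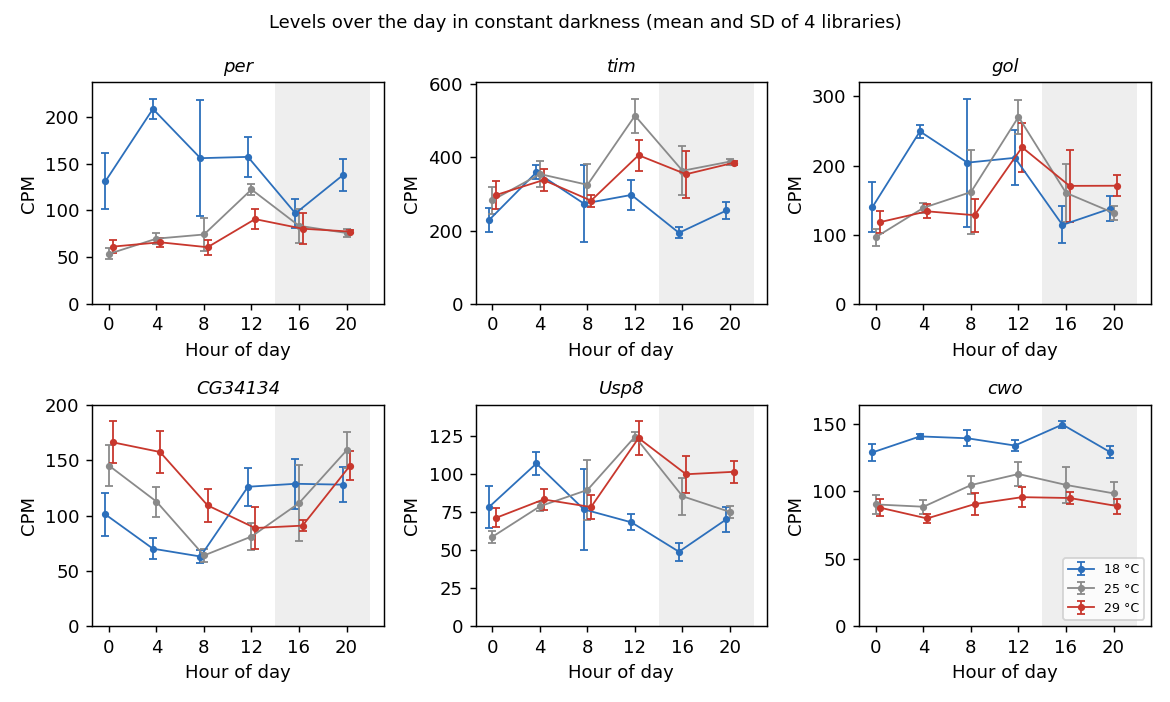
Mean level in CPM with SD (n = 4 libraries per point, 2 days and 2 replicates) over the 6 hours of the day at 18 °C (blue), 25 °C (grey) and 29 °C (red) for 6 genes, with hours 16 and 20 shaded. At 18 °C per, tim, gol and Usp8 are highest at hour 4 and low at hour 16, and at 29 °C tim, gol and Usp8 are highest at hour 12.

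Among the other genes of this comparison, gol (2R, 25072627 to 25084347, minus strand), which encodes a RING-finger ubiquitin ligase, gave a difference of 1.21 ± 0.17 (edgeR adjusted p = 0.000525). Its range at night was 92.5 to 159.7 CPM at 18 °C and 140.0 to 248 CPM at 29 °C, whereas by day it was 148 to 341 CPM at 18 °C and 109 to 163 CPM at 29 °C. So gol was higher in warm heads at night (log2 fold change 0.45) and lower in warm heads by day (-0.75), and both changes were called. Usp8 encodes a deubiquitinase reported to act on the CLOCK protein in flies. It ran from 43.5 to 80.2 CPM at 18 °C and from 90.8 to 118 CPM at 29 °C at night, without overlap (0.78 ± 0.09), while its day value of -0.14 was not called. The difference for Usp8 was 0.93 ± 0.15 (edgeR adjusted p = 0.00253). The uncharacterised gene CG34134 (2L, 8190297 to 8190781, minus strand) went the other way with a difference of -1.13 ± 0.16. By day it was 0.99 higher in warm heads on the log2 scale, with 58.5 to 80.7 CPM against 88.0 to 177 CPM. Pooled over the night hours it was not called (-0.15 ± 0.11). At hour 16 alone it ran from 109 to 160.5 CPM at 18 °C and from 84.5 to 96.3 CPM at 29 °C, without overlap. The difference between the night hours was not called.

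The remaining 11 genes were chosen for naming after their values were seen. Juvenile hormone esterase (Jhe), which breaks down juvenile hormone, was lower in warm heads at night (log2 fold change -1.06, from a mean of 6.82 ± 1.52 to 3.26 ± 0.56 CPM) and not called by day (0.23), a difference of -1.28 ± 0.19. The clock-controlled feeding gene takeout (to) gave -0.35 at night and 0.15 by day. Cyp4d21, a P450 gene known for sex-specific expression in the fat body of the head, was not called at night (-0.10) and was lower by day (-0.57). CG18302 was higher at night (0.53) and lower by day (-0.15). Gp210, which encodes a nuclear pore protein, gave 0.27 at night and -0.16 by day, and the hexosamine pathway gene Gfat1 gave 0.22 and -0.02. The others, as the night minus day difference, were CG6333 (-0.91), Cyp304a1 (-0.77), asRNA:CR45195 (0.80), the tRNA-processing gene RNaseZ (0.48) and the kinase gene Dyrk2 (0.44).

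The count of night-day differences depended on which libraries were in the fit, and the fits below also hold fewer libraries. Replicate 1 of day 4, hour 8, was high for clock genes, with per at 249 CPM against 131 CPM in replicate 2 at 18 °C and tim at 432 against 229.7 CPM. Without the 4 libraries of that time point 9 genes were called, without those of day 4, hour 16, 10, and without either 9. In each of these 3 fits 9 of the 17 genes were called, and all 17 kept their sign. The genes gol, CG34134, per, Usp8, CG18302 and Gp210 were called in all 3, and tim was called in 2 of them but not without day 4, hour 16 (edgeR adjusted p = 0.0584). Without replicate 1 of every time point 3 genes were called, and without replicate 2 only 2. Both per (edgeR adjusted p = 0.081 and 0.138) and tim (edgeR adjusted p = 0.402 and 0.158) lost the call in either of these smaller fits, with their sign kept.

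Within the night, the temperature effect at hour 20 was compared with that at hour 16. No gene of 10374 was called (0.0%) in the main edgeR fit or by DESeq2. An edgeR fit with a replicate block (day, hour and replicate number) called 3. In the main fit, 181 genes had an unadjusted p under 0.05. That is fewer than the share of 0.05 that would arise if no effect differed. The same holds for the 460 of the night-day comparison and the 306 of the day comparison below. The lack of calls does not show that the effects were equal. Between day 5 and day 4, 1 gene was called (0.00964%), and 306 had an unadjusted p under 0.05. It was Lsp2, a second hexamerin. At 18 °C its 4 libraries of day 4 were at 5.83 to 16.4 CPM and its 4 of day 5 at 36.6 to 75.1 CPM, while at 29 °C they were at 12.1 to 40.5 and 14.5 to 26.5 CPM. All 4 cool libraries of day 5 thus stood above all 4 of day 4, while the warm ones overlapped, and the temperature effect differed by -3.16 ± 0.43 on the log2 scale (edgeR adjusted p = 0.0276). DESeq2 called 7 genes in this comparison, and the count was 19 without replicate 1 and 65 without replicate 2.

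Each gene list below is read against the 29.1% of all tested genes that were higher and the 28.1% that were lower. Of 11 small heat shock genes tested, 7 were higher, 0 lower and 4 not called, with a median log2 fold change of 0.80. The 7 include the inseparable Hsp22 and CG4456. Hsp26 rose from a median of 3.67 to 17.7 CPM (2.24 ± 0.13), Hsp23 from 6.75 to 30.6 CPM (2.19 ± 0.09) and the alpha-crystallin relative l(2)efl by 1.78, none with overlap. Hsp67Ba (-0.03), Hsp67Bc (-0.17), CG7409 (-0.05) and CG14207 (0.06) were not called.

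Of 24 large chaperones and co-chaperones, 18 were higher and 1 lower, with a median of 0.45. The heat-inducible Hsp70 copies gave log2 fold changes between 1.46 and 2.44, with their single values uncertain because the copies are nearly identical. Hsp68 rose by 1.48, the co-chaperone genes CG1416 by 0.96, Cdc37 by 0.69 and DnaJ-1 by 0.65, and the mitochondrial chaperonin Hsp60A by 0.46. Hsc70-1 was the member that fell (-0.83). Hsp83, the fly Hsp90 (0.16), and Hsf, the transcription factor of the heat shock response (-0.07), were not called. The endoplasmic reticulum went the other way, with 8 of 18 of its chaperone and stress genes lower, 2 higher and a median of -0.11. Those lower included the oxidase gene Ero1L (-0.44 ± 0.04), Manf (-0.43 ± 0.07) and the stress sensors Atf6 (-0.29) and Ire1 (-0.20). The lectin chaperone Cnx99A (0.50 ± 0.07) and crc, the fly ATF4 (0.47 ± 0.04), were higher without overlap.

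**Figure D4:**
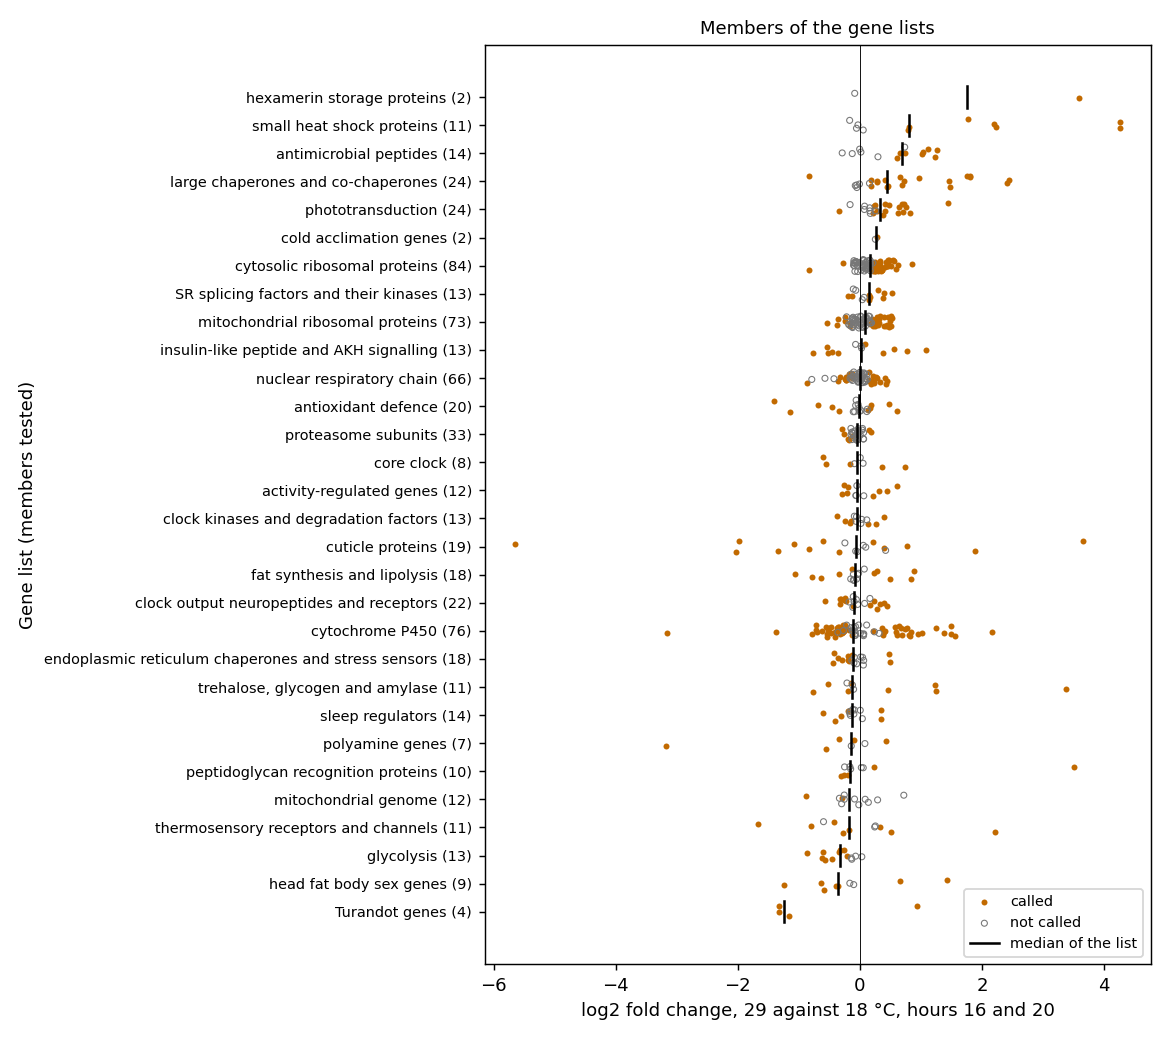
Log2 fold change of 29 against 18 °C at hours 16 and 20 for each tested member of 30 gene lists, with filled points for called members, open points for others and a black bar at the list median. Lists are ordered by their median; small heat shock proteins have a median of 0.80, glycolysis one of -0.32 and the Turandot genes one of -1.24.

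Genes of sugar breakdown were lower in warm heads. Of 13 glycolysis genes, 9 were lower and 0 higher, with a median of -0.32. Hexokinase Hex-A stood at 348, 372 and 394 CPM (lowest, median, highest) at 18 °C and at 237, 245 and 256 CPM at 29 °C, without overlap (log2 fold change -0.60 ± 0.04). Pfk, the main control step of the pathway, fell by 0.56, Pgk by 0.62 and lactate dehydrogenase (Ldh) by 0.87, all without overlap. Ald1 (0.03), Pgi (-0.07), Tpi (-0.13) and Hex-C (-0.14) were not called. The list of 11 trehalose, glycogen and amylase genes was split, with 4 higher and 4 lower. Trehalase (Treh) rose by 0.46 and the trehalose transporter gene Tret1-1 and the glycogen branching enzyme AGBE fell by 0.52 and 0.76.

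Fat metabolism was split as well, with 5 of 18 genes higher and 5 lower. The desaturase Desat1 stood between 2478 and 5242 CPM at 18 °C and between 1250.0 and 2375 CPM at 29 °C, without overlap (log2 fold change -1.06 ± 0.15). Fatty acid synthase FASN1 (-0.78 ± 0.12) and acetyl-CoA carboxylase ACC (-0.64) were also lower. The lipid droplet protein gene Lsd-1 (0.84 ± 0.17) and the triglyceride synthase gene Dgat2 (0.88 ± 0.15) were higher. In insulin-like peptide and AKH signalling 5 of 13 genes were higher and 5 lower. Of the insulin-like peptides made by brain cells, Ilp3 rose by 1.09 ± 0.09 and Ilp5 fell by 0.77 ± 0.06, each without overlap, and Ilp2 was not called (0.02).

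Phototransduction genes, which act in the photoreceptors of the eye, were mostly higher at 29 °C, with 16 of 24 higher, 1 lower and a median of 0.33. The calcium channel gene trp stood at 861, 1770.0 and 1907 CPM (lowest, median, highest) at 18 °C and at 2889, 4522 and 4954 CPM at 29 °C (log2 fold change 1.45 ± 0.12). Every warm library was above every cool one for trp, Arr2 (0.76 ± 0.11) and the rhodopsin Rh4 (0.73 ± 0.07). Arrestin Arr1 was the member that fell (-0.34). Of 5 photoreceptor markers, all of which are in the same list, 4 were higher, and their sum was 33848 to 59849 CPM at 18 °C and 54973 to 83750.0 CPM at 29 °C. Of 5 glial markers 4 were lower without overlap (median -0.56), including the glutamate transporter Eaat1 (-0.56) and the glial pump subunit nrv2 (-0.87), and their sum was 1265 to 1731 CPM at 18 °C against 895 to 1118 CPM at 29 °C. All 4 tested muscle markers were higher (median 0.40), and of 5 neuron markers 2 were higher and 1 lower. Of 4 tested markers each, head fat body had 0 higher and 2 lower, haemocytes 1 and 1 and female tissue 0 and 2, and the single tested markers of testis and gut were not called. In whole heads, fewer cells of a type and less RNA per cell cannot be told apart, and the part of cell makeup in these results was not tested. The median of the phototransduction list was 0.47 without replicate 1 and 0.22 without replicate 2.

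Immune and stress genes moved in different directions. Of 14 antimicrobial peptide genes, 8 were higher and 0 lower, with a median of 0.70. Drosomycin (Drs) ran from 15.0 to 56.1 CPM at 18 °C and from 28.7 to 124 CPM at 29 °C, with overlap (log2 fold change 1.26 ± 0.24), and Attacin-B (AttB) had medians of 15.6 and 37.2 CPM, without overlap (1.23 ± 0.19). This list varied between replicates, and its median was 1.15 without replicate 1 and 0.33 without replicate 2, where 6 genes were higher and 3 lower. Of the 4 Turandot genes tested, secreted peptides induced by stress, TotA (-1.32 ± 0.11), TotC (-1.32 ± 0.22) and TotM (-1.17 ± 0.30) were lower and TotX was higher (0.94 ± 0.11). TotA stood between 314 and 552 CPM at 18 °C and between 133 and 194 CPM at 29 °C. Of 10 peptidoglycan recognition genes, 2 were higher and 3 lower, and PGRP-SC2 was the member past 2-fold. Antioxidant genes were evenly split, with 5 of 20 in each direction. Prx6c, a peroxiredoxin, fell by 1.41 and the extracellular dismutase Sod3 by 0.68, and the transcription factor gene maf-S rose by 0.61, all without overlap.

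Ribosomal protein genes were more often higher than lower, by small amounts. Of 84 cytosolic ones, 37 were higher and 2 lower (median 0.17), and of 73 mitochondrial ones, 25 were higher and 7 lower (median 0.08). The called shares, 46.4% and 43.8%, were below the 57.2% of all tested genes. RpL5 rose by 0.63 and RpS14b, which has a near-identical copy, by 0.60, while RpL41 fell by 0.83 from a median of 1235 to 809 CPM. Among 66 nuclear respiratory chain genes 15 were higher and 13 lower (median 0.00), and of 33 proteasome genes 2 were higher and 5 lower (1 and 11 without day 4, hour 16). Of 12 mitochondrially encoded genes 2 were lower. Their counts depended on the replicate, with 0 higher and 6 lower without replicate 1 and 4 higher and 1 lower without replicate 2.

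Cytochrome P450 genes moved in both directions, with 24 of 76 higher and 32 lower (73.7% called, against 57.2% of all tested genes). Cyp309a2 rose by 2.17 ± 0.17, its neighbour Cyp309a1 by 1.55 and Cyp12d1-p by 1.49, and the insecticide-resistance gene Cyp6g1 rose from a median of 55.4 to 142 CPM (1.38 ± 0.12), none with overlap. Cyp12d1-p has a near-identical neighbour, Cyp12d1-d, which was also higher. Of 19 cuticle genes tested, 5 were higher and 8 lower, and 29 of the 48 listed did not pass the filter on low counts. Of 7 polyamine genes, 1 was higher and 4 lower, with SamDC at -0.55 ± 0.12 and spermidine synthase SpdS at 0.43 ± 0.07.

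Neuropeptide, sleep and activity genes moved in both directions. Of 22 clock output neuropeptides and receptors, 6 were higher and 8 lower. The gene of the clock peptide PDF rose by 0.17, Dh44 rose by 0.33 ± 0.04 and the receptor gene SIFaR fell by 0.58 ± 0.08 without overlap. Of 14 sleep regulators, 2 were higher and 4 lower (1 and 8 without replicate 2), with the dopamine receptor gene Dop1R1 at -0.61 ± 0.12 and cv-c at -0.41 ± 0.04. Of 12 activity-regulated genes, 4 were higher and 4 lower, with kay, the fly Fos, at 0.31 ± 0.04. Of 11 thermosensory receptors and channels, 3 were higher and 5 lower. The heat-activated channel gene pyx rose from a median of 6.84 to 9.55 CPM (0.51 ± 0.08) without overlap, and TrpA1 was not called (0.24). The ionotropic receptor genes Ir93a, which rose by 2.22 ± 0.22 from a mean of 0.27 to 1.26 CPM, and Ir68a, which fell by 1.67 from 4.10 to 1.28 CPM, were the members past 2-fold, both without overlap and both named after their values were seen. Of 13 splicing factors of the SR family and their kinases, 7 were higher and 2 lower, led by Srp54 (0.52 ± 0.04) and nito (0.39 ± 0.05). Of 2 cold acclimation genes tested, regucalcin was higher (0.28 ± 0.07). Of the 9 genes with sex-dependent roles in the head fat body, 2 were higher and 5 lower, with sxe2 at 1.44 ± 0.09 and fit at -1.24 ± 0.20. The 2 members of the hexamerin list that were tested are Lsp1beta and Lsp2, described above.

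The 8 libraries at 25 °C and the same hours divide the change into a lower and an upper step. From 18 to 25 °C, 4517 of 10547 genes were called (42.8%, with 20.6% higher and 22.2% lower at the warmer temperature). From 25 to 29 °C 365 were called (3.46%, with 2.2% higher and 1.26% lower), or 469 without replicate 1 and 218 without replicate 2. With a replicate block (day, hour and replicate number) the upper step gave 1417, so its count depended strongly on the fit. Both steps share the 25 °C libraries, so their values are given side by side only. Of the 510 genes with at least 2-fold changes, 477 had a 25 °C mean between the other means. A median of 75.4% of their log change (pseudocount 0.1 CPM) lay between 18 and 25 °C, which is 63.6% of the 11 °C range. Hsp22 and CG4456 gave log2 fold changes of 3.37 for the lower step and 0.89 for the upper one, Cpr72Ec 2.98 and 0.68, PGRP-SC2 2.26 and 1.28, and Odc2 -2.22 and -0.97, and the upper step was called for each of them. For tim the steps were 0.75 and -0.02 and for per -0.55 and -0.01, with the upper step called for neither.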

How the data were processed

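Per the submitters' processing notes, fastp 0.23.2, HISAT2 2.2.1, featureCounts and Subread 2.0.8 were used; the build, annotation and strand setting are not given in the sources used here. Per the labels, libraries were directional and polyA-selected. The deposited table holds estimated counts for 17610 genes, of which 40.2% of nonzero values are not whole; all 96 columns matched a sample. The values were rounded for edgeR 4.0.16 quasi-likelihood fits (R 4.3.3, TMM, filterByExpr, time point plus temperature). The filter left 10374 genes with 99.9% of the counts. Calls use a Benjamini-Hochberg adjusted p of 0.05. Log2 fold changes carry the SE. Symbols and positions are from the BDGP6.54 annotation (17607 identifiers matched), possibly not the build of the table. Reads without molecular identifiers make depth a guide to counting error only. P-values measure the spread between libraries, described as biological replicates by the series' design text.

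The members, gene lists and tests were chosen with earlier results of these data known. Named genes are the 12 largest changes each way among called genes with a mean of 5 CPM or more and one direction at 4 time points, the 5 largest called interactions, the core clock genes, and up to 4 called members per list with the largest changes. Others named, such as those not called, were chosen after their values were seen. Scripts were tested on simulated data. Alternatives were DESeq2 1.42.0, other scaling, filters, libraries and a replicate block.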

Additional observations from a re-analysis of the deposited data

Results flagged for a closer look

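The temperature effect differed between the night hours 16 and 20 and the day hours 4 and 8 in 17 genes, by the interaction test in edgeR described above. As night minus day on the log2 scale, the values were 1.21 for gol, 0.96 for per, 0.93 for Usp8, 0.84 for snoRNA:Or-CD16, 0.80 for asRNA:CR45195, 0.74 for tim, 0.70 for CG18302, 0.48 for Cyp4d21, 0.48 for RNaseZ, 0.45 for Gp210, 0.44 for Dyrk2 and 0.25 for Gfat1. The negative values were -1.28 for Jhe, -1.13 for CG34134, -0.91 for CG6333, -0.77 for Cyp304a1 and -0.49 for to. Between day 5 and day 4 the effect on Lsp2 differed by -3.16.

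Of 304 groups of 8 libraries examined, 19 held a library far from the other 7 by Dixon's test, where chance gives about 5% of groups. Of these, 10 were in libraries of day 4, hour 16. At 29 °C, replicate 1 of that time point was lowest for Lsp1beta (126 CPM, next 266), CG34456 (8.78), Lsd-1 (327) and Cyp309a1 (6.49) and highest for per (104, next 79.8) and Cpr49Ae (23.2). At 18 °C, replicate 1 was lowest for Obp99b (7.73) and Cyp12d1-p (2.90), and replicate 2 was lowest for CecA1 (0.807, next 2.90) and cv-c (132). Elsewhere at 29 °C, the lowest libraries were those for Srp54 (56.9), TotC (17.9), mRpL53 (23.6) and CG6333 (1.53). The highest were those for Ccp84Ag (0.524), mRpL49 (22.5), CG18302 (59.0) and Gfat1 (107). At 18 °C, Cyp4d21 was lowest at 191 CPM.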

How the results depend on the processing

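The count of called genes was 5625 to 6918 under DESeq2, DESeq2 size factors, both other filters, the replicate block, all 96 libraries, without either replicate and without day 4, hour 16. It fell to 3211 (1588 higher, 1623 lower) with day 4 alone and to 3216 (1642 higher, 1574 lower) with hour 16 alone, fits of 8 libraries. The 2-fold count was 865 with no low-count filter. With the day, hour and replicate number as a replicate block, the night-day difference gave 27 genes, the hour difference 3, the day difference 8 and the step from 25 to 29 °C 1417. Deviations of same-label libraries from the mean of their temperature, at 18 and 29 °C, correlated at 0.06 to 0.57. They were over 0.1 in 7 of 8 pairs, and 3 of 8 correlated best with their own label. These deviations still hold day and hour effects shared by both temperatures, so they cannot isolate a replicate effect. The labels name no shared batch and the criterion used here asked for over 0.1 in every pair, so the block was not used for the main values. A shared effect of these labels was not excluded. The night-day count was 2 to 3 with one replicate left out, 10 without day 4, hour 16, 9 without day 4, hour 8, and 9 without both. The day difference was called in 7 genes by DESeq2, 5 with no filter and 19 to 65 with one replicate left out. The step from 25 to 29 °C gave 218 to 469 genes with one replicate left out. List medians moved with one replicate left out, over these ranges: core clock -0.0488 to 0.0477, clock kinases -0.0523 to -0.000876, large chaperones 0.43 to 0.51, SR factors 0.11 to 0.21, antimicrobial peptides 0.33 to 1.15, peptidoglycan recognition -0.14 to -0.0367, phototransduction 0.22 to 0.47, insulin -0.0703 to 0.0366, neuropeptides -0.0593 to -0.0336, sleep -0.16 to -0.025, head fat body sex genes -0.38 to -0.21, proteasome -0.0568 to 0.0012 and mitochondrial genome -0.34 to 0.18. With day 5 alone the medians were -0.18 (endoplasmic reticulum), -0.26 (cuticle) and -0.30 (polyamine). With day 4 alone they were 0.0849 (SR), 2.71 (hexamerins) and -0.10 (peptidoglycan recognition). With hour 16 alone they were 0.42 (phototransduction) and -0.0512 (insulin), with hour 20 alone -0.12 (core clock) and -0.17 (P450), and with at least 1 CPM in 8 libraries -0.27 (thermosensory). For single genes, 2004 values kept their side of the threshold, 14 of them, from 7 results called in neither fit, with the other sign. A further 148 lost the call, 18 gained it and 2 reversed with a call in one fit: Lsp2 with day 4 alone (1.59) and vri with hour 20 alone (-0.16). The cause of these shifts was not tested, and the fits that left out libraries also held fewer of them. Depth limits the genes near 1 CPM, where about 20.6 counts stand behind a value.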
